A study of Mus musculus with 2 samples.

Results

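Macrophages with RNA of genes known from tissue-resident macrophages were picked out of the immune infiltrate of a mouse melanoma. They were set against the other macrophages of the same tumours, and neither residence nor lifespan was measured. A cell was taken as a Lyve1 Cbr2 Ednrb macrophage, called a member from here on, when it had 3 or more unique molecular identifiers (UMIs, 1 per captured RNA molecule) summed over the genes Lyve1, Cbr2 and Ednrb, and 10 or more UMIs per 10000 of the complement genes C1qa, C1qb and C1qc, which mark macrophages. Cells with more than 4 UMIs of the cycling genes Mki67 and Top2a, or more than 1 of the T cell genes Cd3d, Cd3e and Cd3g, were left out. Members were thus chosen by measured values, the UMIs of the genes just named. Of 20216 cells that passed limits of 1000 UMIs, 300 genes and 10% mitochondrial UMIs in both libraries, 316 were members. They were compared with 4007 other C1q macrophages, which met the same limits but had fewer than 3 UMIs of the rule genes.

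The cells came from subcutaneous tumours of B16-F10, a pigmented mouse melanoma cell line that grows in immunocompetent mice. Tumours grown from DGAT1 knockout melanoma cells, whose gene for the last enzyme of triglyceride synthesis was disrupted, were compared with WT control tumours. Per the labels, 3 tumours per group were taken 14 days after injection, and living CD45+ cells were sorted and run as 1 droplet library per group. The change was made in the implanted cell line, so the macrophages are host cells in both groups, and the labels do not say whether the knockout line is 1 clone. They give neither the mouse strain nor the age of the mice, and tie no cell to a tumour.

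Tissue-resident macrophages with Lyve1 sit along blood vessels and in connective tissue in many organs. Lyve1 encodes a receptor for hyaluronan, a sugar polymer of the matrix, and is shared with lymphatic endothelium. Cells that carry it with Folr2, Mrc1 and Cd163 are known for scavenging, for recycling iron and for low antigen presentation.

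Each group is a single library, so differences have no replicate check, no test was made and no p-value is given. Levels are CPM, the summed UMIs of a gene scaled by all UMIs of its class in its library. Intervals are 95% and cover counting error only, leaving out that a gene's UMIs can lie in few cells. The libraries held 202946827 UMIs (knockout) and 235652476 UMIs (WT), and 25 cell barcodes past the limits were shared between them, of which 0 were members. Scrublet, which looks for droplets with 2 cells, marked 2.91% and 1.85% of the 2 libraries' cells and 0 members in either. Median depth was 18169 UMIs per member in knockout tumours and 24842 in WT tumours, against 13158 and 15236 UMIs in other C1q macrophages. A rule on raw UMIs is met more easily by deeper cells, and this bears on every share below.

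There were 93 members among 1744 C1q macrophages in the knockout library, 5.33% (4.33% to 6.49%, exact binomial), and 223 among 2579 in the WT library, 8.65% (7.59% to 9.80%). The ratio of the shares, knockout over WT, was 0.617 (0.479 to 0.789). When every cell was first thinned at random to 3000 UMIs, 43 knockout and 72 WT cells met the rule. This used the 10424 knockout and 8230 WT cells with 3000 or more UMIs, and the fixed limit on cycling UMIs removes fewer cells after thinning. Their shares were then 2.21% and 2.40%, with a log2 ratio of -0.11 (-0.69 to 0.45). With a rule of 3 or more UMIs per 10000 in place of raw UMIs, the shares were 4.53% and 5.82%, with a log2 ratio of -0.36 (-0.77 to 0.04). The intervals of both these ratios included 0, while the lower bound under thinning was close to the -0.70 found without it. The part of depth in the difference was not tested apart from these settings. Members with any Lyve1 UMI made up 1.20% of C1q macrophages in knockout tumours (21 cells) and 1.78% in WT tumours (46 cells), a ratio of 0.675 (0.383 to 1.15). Of all cells past the limits, members were 0.828% in knockout tumours and 2.48% in WT tumours, while all C1q macrophages were 15.5% and 28.7%. A share of CD45+ cells does not tell fewer cells of a type from more of the others.

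**Figure D1:**
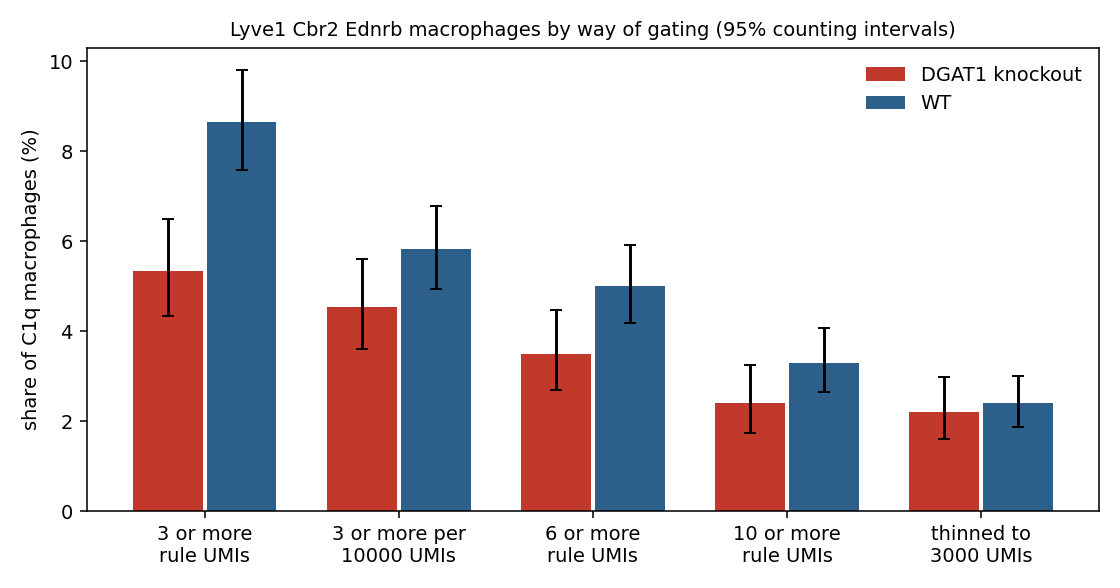
Share of Lyve1 Cbr2 Ednrb macrophages among C1q macrophages (y axis, percent) under 5 ways of gating (x axis), for the DGAT1 knockout (red) and WT (blue) library; error bars are exact 95% binomial intervals for counting error. The bars stand at 5.33% and 8.65% under the rule of 3 UMIs and at 2.21% and 2.40% after thinning to 3000 UMIs.

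The 3 rule genes chose the members, so their levels are a description. Lyve1 (chromosome 7, 110850607 to 110863239, minus strand, mm10) stood at 96.7 CPM in knockout members and 72.2 CPM in WT members, against 0.0394 and 0.225 CPM in other C1q macrophages. Cbr2 (chromosome 11, 120729489 to 120732114, minus strand), a carbonyl reductase, stood at 382 and 338 CPM in members, against 6.11 and 8.11 CPM. Ednrb (chromosome 14, 103814625 to 103844402, minus strand), a receptor for endothelins, stood at 283 and 193 CPM, against 1.85 and 2.00 CPM. The genes were found unevenly among members: Cbr2 in 81 of 93 knockout and 210 of 223 WT members, Ednrb in 55 and 111, and Lyve1 in 21 and 46. All 3 were found together in 15 knockout members and 38 WT members. At the threshold, 15 knockout and 52 WT members had exactly 3 rule UMIs, while 40 knockout and 93 WT cells with 2 stayed outside. The highest cell had 104 rule UMIs in knockout tumours and 152 in WT tumours.

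Folr2 and Gas6 belong to the label but not to the rule, and both stood far higher in members. Folr2 (chromosome 7, 101839988 to 101857194, minus strand), a folate receptor, had 319 CPM in knockout members (295 to 346) against 23.2 CPM in other C1q macrophages (21.4 to 25.2), and 328 CPM in WT members (314 to 343) against 71.4 CPM (68.8 to 74.1). That is 13.8-fold in knockout tumours and 4.59-fold in WT tumours. Gas6 (chromosome 8, 13465374 to 13494490, minus strand), a bridging ligand of the TAM receptors that bind dying cells, had 312 CPM in knockout members against 15.4 CPM, and 245 CPM in WT members against 21.1 CPM. Folr2 was found in 77.4% of knockout members, 15.6% of other C1q macrophages and 1.36% of T cells, which should lack it, at median depths of 18169, 13158 and 17085 UMIs. After thinning to 3000 UMIs these shares were 53.8%, 5.82% and 0.247%, and in the WT library 51.1%, 13.6% and 0.721%. General macrophage genes were also present: Csf1r, the receptor for the growth factor CSF1, had 474 and 380 CPM in knockout and WT members, and Adgre1, which encodes F4/80, 423 and 425 CPM.

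Lymphatic endothelium shares Lyve1, and its genes Prox1, Flt4, Mmrn1 and Ccl21a were at 0 in members of both libraries, with 5 and 6 of its 8 listed genes at 0 in knockout and WT members. The summed lymphatic list had 94.1 and 55.7 CPM in members, against 87.7 and 68.1 CPM in other C1q macrophages, and came mainly from Pdpn, which some macrophages express. Mast cell and Langerhans cell lists were at 0 in all members. Of 9 blood endothelial genes 6 and 3 were at 0, and the list summed to 13.9 and 17.8 CPM in members, against 44.3 and 58.6 CPM. Melanoma genes, at a summed 499 and 674 CPM in knockout and WT members against 590 and 636 CPM, were in the same range in both classes. One red cell signal stood apart: haemoglobin genes had 1807 UMIs in knockout members, of which 1786 lay in 1 cell, against 26 UMIs in WT members.

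The promoters of the markers are shown because these genes were high in the same cells. Sequences are RefSeq's on GRCm38.p6, from 250 bases before to 50 after the annotated start and 5′ to 3′ on the gene's strand; Lyve1 has no entry in the table used. Capitals mark matches on either strand to TGCTGA, the half-site of the MAF transcription factors, or to GAGGAA, the core bound by the macrophage factor PU.1. No match overlapped another in these windows.
Cbr2, chr11:120731972-120732271, minus strand: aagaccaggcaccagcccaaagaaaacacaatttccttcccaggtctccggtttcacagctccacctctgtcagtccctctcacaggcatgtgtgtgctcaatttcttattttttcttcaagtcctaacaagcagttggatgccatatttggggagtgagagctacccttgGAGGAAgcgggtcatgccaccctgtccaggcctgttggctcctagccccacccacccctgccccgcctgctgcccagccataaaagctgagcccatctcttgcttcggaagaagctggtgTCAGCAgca
Ednrb, chr14:103843652-103843951, minus strand: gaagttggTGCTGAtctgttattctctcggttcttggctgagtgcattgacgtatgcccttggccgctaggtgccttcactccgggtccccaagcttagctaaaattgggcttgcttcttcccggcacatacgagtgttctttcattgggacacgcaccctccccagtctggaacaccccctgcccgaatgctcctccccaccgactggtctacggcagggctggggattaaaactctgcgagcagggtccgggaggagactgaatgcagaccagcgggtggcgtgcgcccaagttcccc
Folr2, chr7:101857141-101857440, minus strand: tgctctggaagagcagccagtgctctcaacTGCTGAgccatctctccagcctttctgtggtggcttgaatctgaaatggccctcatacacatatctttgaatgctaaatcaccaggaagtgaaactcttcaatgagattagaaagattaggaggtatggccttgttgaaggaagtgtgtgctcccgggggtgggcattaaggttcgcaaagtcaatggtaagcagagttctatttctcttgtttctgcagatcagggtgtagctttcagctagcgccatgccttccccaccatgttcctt
Gas6, chr8:13494486-13494785, minus strand: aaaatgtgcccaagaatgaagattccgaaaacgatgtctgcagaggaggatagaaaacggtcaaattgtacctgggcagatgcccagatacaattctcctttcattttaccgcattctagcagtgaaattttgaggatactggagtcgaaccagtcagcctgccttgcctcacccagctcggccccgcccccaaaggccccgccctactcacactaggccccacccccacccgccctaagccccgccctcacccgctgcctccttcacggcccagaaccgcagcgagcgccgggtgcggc

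The Cbr2 window held 1 match to each motif, the Ednrb window and the Folr2 window shown 1 MAF half-site each, and the Gas6 window held neither. Of all 32851 promoter windows, 19.5% held the MAF half-site and 28.3% the PU.1 core. Among 18 genes, the 15 named below as highest in members with the 3 rule genes, 16 matched the table and 6 of them held the half-site in at least 1 window. Of the 15 genes named as lowest, 13 matched and 1 held it. The PU.1 core was in 7 of the 16 and 5 of the 13. Some genes have several windows, no test was made, and a match of letters shows no binding. Maf itself, a transcription factor of tissue macrophages, had 985 CPM in knockout members and 851 CPM in WT members, against 424 and 470 CPM in other C1q macrophages. Spi1, which encodes PU.1, had 396 and 414 CPM in members, against 409 and 465 CPM.

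Across all 12568 genes with enough UMIs, 6.13% were 1.5-fold or more higher in members in both libraries and 6.61% were lower in both. Within 1 library the shares were 16.8% higher and 13.9% lower in knockout tumours and 9.95% higher and 11.5% lower in WT tumours. Of 21 measured resident macrophage genes outside the rule, 17 were higher in both and 0 lower in both, with median log2 ratios of 2.22 in knockout tumours and 2.00 in WT tumours, against 0.09 and 0.07 over all genes. Mrc1, the mannose receptor, had 1584 CPM in knockout members and 1411 CPM in WT members, against 384 and 354 CPM in other C1q macrophages. Pf4, a platelet-type chemokine also made by resident macrophages, had 2964 and 2479 CPM, against 438 and 552 CPM. Selenop, which carries selenium in plasma, had 1250 and 1076 CPM, against 152 and 249 CPM. These 3 genes were higher in members of both libraries, and Mrc1 was found in 92 of 93 knockout members.

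Stab1, a scavenger receptor, had 703 and 663 CPM in members, against 189 and 177 CPM. F13a1, the clotting factor XIII A chain, had 1135 and 878 CPM, against 277 and 209 CPM. Ltc4s, which makes leukotriene C4, had 104 and 86.1 CPM, against 7.68 and 7.96 CPM. Other genes of the list were rare in other C1q macrophages. Fcna, a ficolin, stood at 41.7 and 45.2 CPM against 1.42 and 4.04 CPM. Cd163, the scavenger receptor for haemoglobin bound to haptoglobin, stood at 179 and 43.7 CPM against 0.670 and 1.05 CPM. Timd4, a receptor for dying cells, was low, at 7.71 and 1.85 CPM, from 1 knockout and 4 WT members. It counts among the 17 genes higher in both libraries, as does Cd209f, found in 4 knockout and 2 WT members. Mgl2 and Marco did not share a direction between the libraries. Mgl2, a lectin, had 37.5 and 33.6 CPM in members against 103 and 28.1 CPM, and Marco, a scavenger receptor, 21.6 and 3.70 CPM against 3.35 and 7.04 CPM.

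The genes ranked highest outside the rule, by the bound of the ratio nearest to 0 in either library, were Gas6, Etv1, Igfbp4, Folr2, Selenop, Lifr, Nxpe5, Tmem8, F13a1, Mrc1, Stab1, Slc9a9, Fcgrt, Rnase4 and Igf1. Etv1, an ETS transcription factor, had 52.5 and 55.2 CPM in members against 7.76 and 9.59 CPM. Igfbp4, a carrier of insulin-like growth factors, had 96.2 and 109 CPM against 17.2 and 16.7 CPM, and Igf1, the growth factor itself, 118 and 153 CPM against 32.8 and 44.1 CPM. Lifr, the receptor for the cytokine LIF, had 128 and 68.3 CPM against 26.2 and 14.8 CPM. Growth and vessel factors as a list gave 8 of 18 genes higher in both libraries and 4 lower. The higher ones were Pdgfc, Nrp1, Ecm1, Fgfr1, Ang, Rnase4, Mmp9 and Timp2. Mmp9 rested on 5 UMIs in 4 knockout members and 32 UMIs in 7 WT members, with an interval of its knockout log2 ratio from -0.73 to 2.35. Fgfr1, a receptor for fibroblast growth factors, had 33.4 and 21.5 CPM against 2.29 and 0.974 CPM, and Timp2, an inhibitor of matrix proteases, 454 and 497 CPM against 115 and 207 CPM. The lower ones were Pdgfb and the matrix proteases Mmp12, Mmp13 and Mmp14. Vegfa, a growth factor of vessels held in the suppressive macrophage list, was also lower, at 48.9 and 36.2 CPM in members against 151 and 109 CPM.

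**Figure D2:**
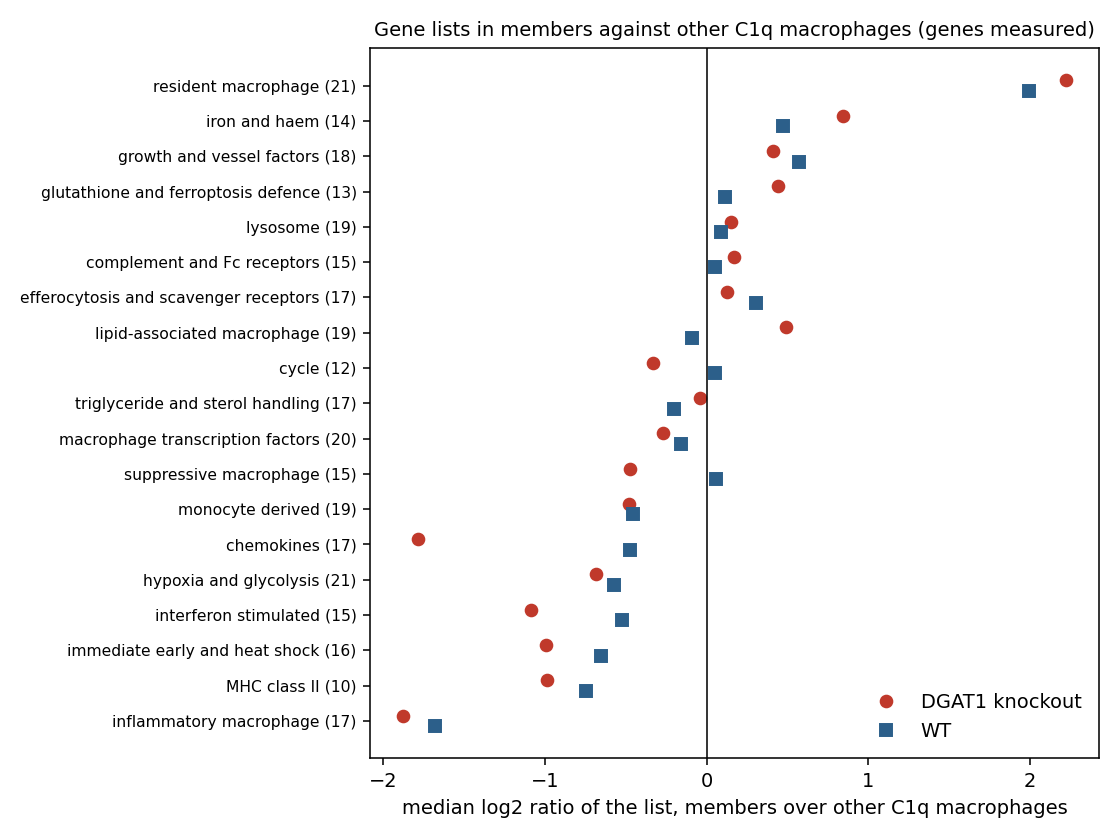
Median log2 ratio of 19 gene lists (rows, with the number of genes measured), members over other C1q macrophages, in the DGAT1 knockout (red circles) and WT (blue squares) library; there are no error bars because a library is 1 sample. Resident macrophage genes lie at 2.22 and 2.00 and inflammatory macrophage genes at -1.88 and -1.68.

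Iron and haem genes came next among the macrophage lists in the knockout library, with 6 of 14 higher in both libraries and 0 lower. Slc40a1, ferroportin, the only known iron exporter, had 124 CPM in knockout members and 81.4 CPM in WT members, against 10.2 and 9.96 CPM. Hmox1, which breaks down haem, had 2478 and 1843 CPM, against 813 and 1002 CPM. Both were concentrated in few knockout members, of which 10 held 95.02% of the Slc40a1 and 73.3% of the Hmox1 UMIs, while 10 WT members held 70.2% and 32.5%. Knockout members with Lyve1 had 836 CPM of Hmox1 and 10.4 CPM of Slc40a1, close to other C1q macrophages. WT members with Cbr2 as the only rule gene found had 819 and 8.63 CPM, below them. Knockout members with Cbr2 alone had 1112 and 20.1 CPM, and the remaining groups by rule genes found were higher still. The other 4 higher iron genes were Tfrc, Trf, Slc48a1 and Hfe, and Trf, transferrin, had 227 and 130 CPM against 67.6 and 49.2 CPM. Of 13 genes of glutathione and ferroptosis defence, 1 was higher in both, Gclm, part of the enzyme that starts glutathione synthesis, at 126 and 109 CPM against 53.6 and 61.9 CPM. Gpx4, the enzyme that clears lipid peroxides, had 246 and 281 CPM in members, against 183 and 242 CPM. Of 17 genes of triglyceride and sterol handling, 0 were higher in both and 4 were lower (Mgll, Acsl1, Scd2 and Lipg).

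Uptake and lipid genes were mixed. Of 17 efferocytosis and scavenger receptor genes, Pros1 and Dab2 were higher in both libraries and Axl, Mfge8, Cd300lf and Abcg1 lower. Pros1, protein S, is with Gas6 a ligand of the TAM receptors, and had 59.6 and 44.4 CPM in members against 18.9 and 22.5 CPM. Of those receptors, Mertk had 278 and 208 CPM in members against 185 and 139 CPM, just under 1.5-fold in the WT library, whereas Axl had 48.3 and 53.2 CPM against 149 and 110 CPM. Lipid-associated macrophage genes split as well, with Trem2, Apoe and Ctsd higher in both libraries and Gpnmb, Lgals3, Cd9 and Atp6v0d2 lower, of 19. Apoe, the lipid carrier, was the most abundant of these in members, at 7193 and 5254 CPM against 2149 and 1790 CPM. Of 15 complement and Fc receptor genes, 5 were higher, among them C5ar1, C4b, Cfp and Fcgr2b, and 2 lower (C3 and Itgax). C4b, a complement component, had 67.4 and 78.9 CPM in members, against 23.6 and 35.2 CPM, and C3, the central component, 50.4 and 42.0 CPM against 131 and 102 CPM.

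Genes of inflammation and antigen presentation were lower in members. Of 17 inflammatory macrophage genes, 13 were lower in both libraries, against 6.61% of all genes, and 0 were higher. The gene lists were chosen with earlier results of these data known, so the contrast with all genes is a description. Il1b had 47.3 CPM in knockout members and 33.6 CPM in WT members, against 348 and 161 CPM in other C1q macrophages. Nos2, which makes nitric oxide, had 69.9 and 61.2 CPM, against 319 and 265 CPM, and Tnf 34.5 and 46.3 CPM, against 162 and 141 CPM. The genes ranked lowest were Negr1, Rsad2, Il1b, Nos2, Slc7a2, Ptgs2, Ccrl2, Il1rn, Phlpp1, Il7r, Klra17, Inhba, H2-Q6, Ifit1bl1 and Acod1. Negr1, an adhesion protein first known from neurons, had 1 UMI in knockout members and 22.5 CPM in WT members, against 69.1 and 162 CPM. Ptgs2, which makes prostaglandins, had 46.3 and 21.2 CPM against 203 and 106 CPM. Acod1, which makes itaconate, had 65.8 and 102 CPM against 282 and 307 CPM.

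MHC class II genes, which present peptides to CD4 T cells, were lower in both libraries for 7 of 10 and higher for 0. H2-Aa had 1348 and 1145 CPM in members, against 2747 and 1814 CPM, and Ciita, their master regulator, 94.6 and 39.2 CPM against 176 and 73.2 CPM. Interferon-stimulated genes gave 6 of 15 lower and 0 higher, such as Rsad2, an antiviral enzyme, at 118 and 179 CPM against 641 and 815 CPM. Hypoxia and glycolysis genes gave 9 of 21 lower, such as Hilpda, a lipid droplet protein, at 116 and 98.6 CPM against 285 and 294 CPM. Immediate early and heat shock genes gave 9 of 16 lower. Cd274, which encodes PD-L1, had 232 and 244 CPM in members against 634 and 590 CPM. Il4ra, the interleukin 4 receptor, had 261 and 238 CPM against 122 and 108 CPM, and Arg1, arginase 1, 1282 and 1108 CPM against 1083 and 731 CPM.

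The chemokines Ccl8, Ccl6 and Ccl9 were higher in both libraries, with Ccl8 at 2958 and 3389 CPM in members against 784 and 1246 CPM. Ccl3, Ccl4, Ccl5, Ccl22, Cxcl1, Cxcl10, Cxcl14 and Cxcl16 were lower in both, of 17 measured. Ccl5 had 34.5 and 46.6 CPM against 245 and 316 CPM, and Cxcl10, a ligand of CXCR3, 90.5 and 318 CPM against 812 and 678 CPM. Ccl2, the monocyte attractant, differed little, at 1268 and 1538 CPM against 1430 and 1420 CPM. Monocyte-derived genes gave 5 of 19 lower and 0 higher in both. Ly6c2, a mark of classical monocytes, had 210 and 98.4 CPM in members against 261 and 189 CPM, and Ccr2, their chemokine receptor, 283 and 198 CPM against 318 and 170 CPM. Of the transcription factors, Maf alone was higher in both of 20, and Nr1h3, Pparg, Nr4a1, Egr2, Bhlhe40, Bhlhe41 and Hes1 were lower. Lysosome genes gave 1 of 19 higher (Gusb) and cycle genes 0 of 12 either way. Of the macrophage list genes counted as lower, Hes1, Ccl22, Cxcl1, Mfge8, Mgll, Lipg, H2-Oa, Il1a, Il6, Il12b and Ace had 3 UMIs or fewer in knockout members.

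Between cells with 0 and with 10 or more rule UMIs, resident genes differed widely, though not every step ran the same way. Folr2 in the knockout library had 18.6 CPM in cells with 0 rule UMIs, 47.4 with 1, 104 with 2, 150 with 3 to 5, 148 with 6 to 9 and 489 with 10 or more. In the WT library the same steps gave 59.0, 108, 183, 170, 289 and 500 CPM. H2-Aa was lower at the top, with 2812 CPM at 0 rule UMIs and 754 CPM at 10 or more in knockout tumours and 1841 and 811 CPM in WT tumours. Cells with 2 rule UMIs, just outside, and members with 3 to 5 were close in H2-Aa, at 1896 and 2170 CPM in knockout tumours and 1400 and 1448 CPM in WT tumours. In Mrc1 they had 924 and 813 CPM in knockout tumours and 588 and 776 CPM in WT tumours. Median depth moved along the same axis, with 12982 UMIs at 0 rule UMIs and 20666 at 10 or more in knockout tumours and 14312 and 26248 in WT tumours. The part of depth in these steps was not tested within the bins. Outside the bins, 90 of 92 results past 1.5-fold kept their sign under thinning to 3000 UMIs before gating, and 80 also stayed past 1.5-fold. These results were list medians, chosen genes and the ratio of shares. The bins were not recomputed, and the genes had been chosen in the same cells, so this does not bear on depth in the bins.

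**Figure D3:**
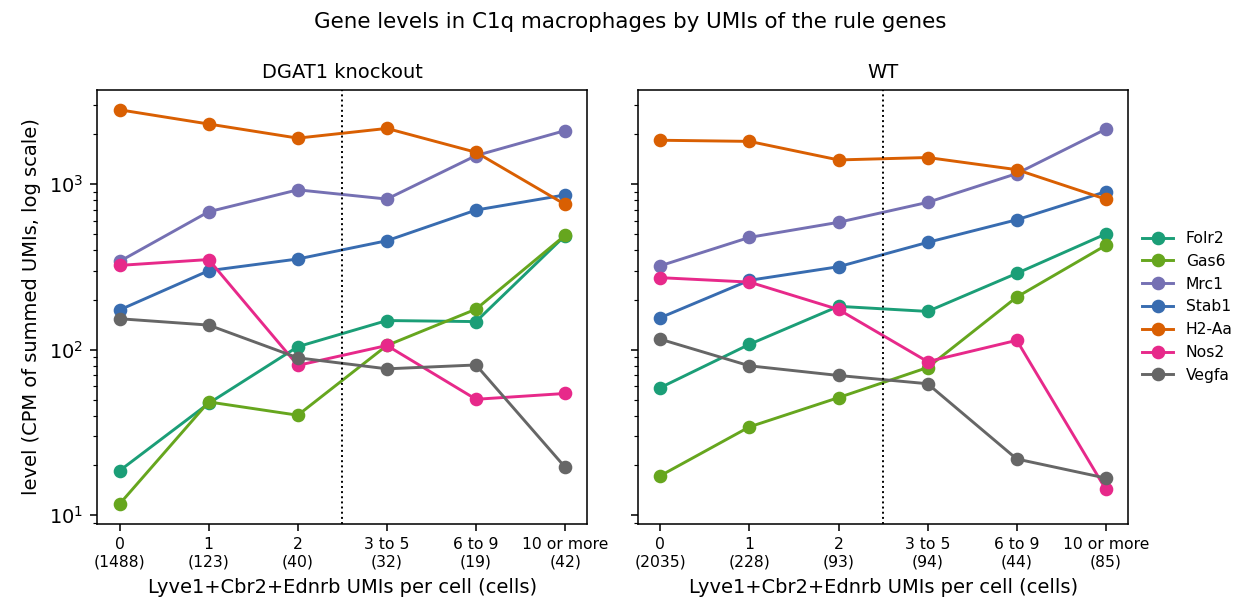
Level of 7 genes (y axis, CPM on a log scale) in C1q macrophages by the summed UMIs of Lyve1, Cbr2 and Ednrb per cell (x axis, number of cells in brackets), DGAT1 knockout library on the left and WT on the right; points are 1 class sum each and the dotted line is the threshold of 3. Folr2 reached 489 and 500 CPM in the top class, where H2-Aa had 754 and 811 CPM.

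Levels differed with the rule genes that were found in a member. By the rule genes found, 21 knockout and 46 WT members had Lyve1, 29 and 60 had Cbr2 and Ednrb without Lyve1, 32 and 104 had Cbr2 alone, and 11 and 13 had Ednrb alone. The Lyve1 cells were highest in Folr2, at 558 and 611 CPM, in Gas6, at 673 and 581 CPM, and in Cd163, at 458 and 129 CPM. Cells with Cbr2 alone had 174 and 217 CPM of Folr2, 119 and 91.1 CPM of Gas6 and 37.2 and 5.87 CPM of Cd163. Folr2 was found in 20 of 21 knockout and 45 of 46 WT cells with Lyve1, and in 20 of 32 and 85 of 104 cells with Cbr2 alone. Fcna followed the same order, in 17 of 21 and 33 of 46 cells with Lyve1 against 6 of 32 and 25 of 104. Cd209f, a lectin, was found in members with Lyve1 and in no others, in 4 knockout and 2 WT cells. MHC class II was lowest where Lyve1 was found in the WT library, with H2-Aa at 626 CPM against 1502 CPM in cells with Cbr2 alone. In the knockout library H2-Aa was 1064 and 1747 CPM in these cells.

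Cells with Ednrb alone were high in Hmox1, Slc40a1 and Arg1 and low in Folr2. Their Hmox1 stood at 8869 and 7172 CPM in the knockout and WT libraries, against 836 and 2019 CPM in members with Lyve1. Slc40a1 stood at 613 and 495 CPM against 10.4 and 99.3 CPM, and was found in 6 of 11 and 8 of 13 of these cells. Arg1 reached 3843 and 3054 CPM against 1425 and 743 CPM. Gas6 was found in 0 of 11 knockout cells with Ednrb alone, which allows up to 3 UMIs over the group, and in 6 of 13 WT cells. Folr2 was at 55.0 and 110 CPM there, and Ccl8 at 11.8 and 1572 CPM. Other resident genes did not follow Folr2. Pf4 was highest in these cells, at 5474 and 4091 CPM against 2547 and 2871 CPM in members with Lyve1, and F13a1, at 770 and 649 CPM, stood between cells with Lyve1, at 1975 and 1757 CPM, and cells with Cbr2 alone, at 486 and 343 CPM. The 1 knockout cell that held 1786 haemoglobin UMIs was among these 11 cells. Without the cells that had Ednrb alone, 100 of 101 results past 1.5-fold kept their sign. This left out 11 of 93 knockout and 13 of 223 WT members, and many of the results were genes chosen in the same members. Most signs could therefore hardly turn, and the count is a description.

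**Figure D4:**
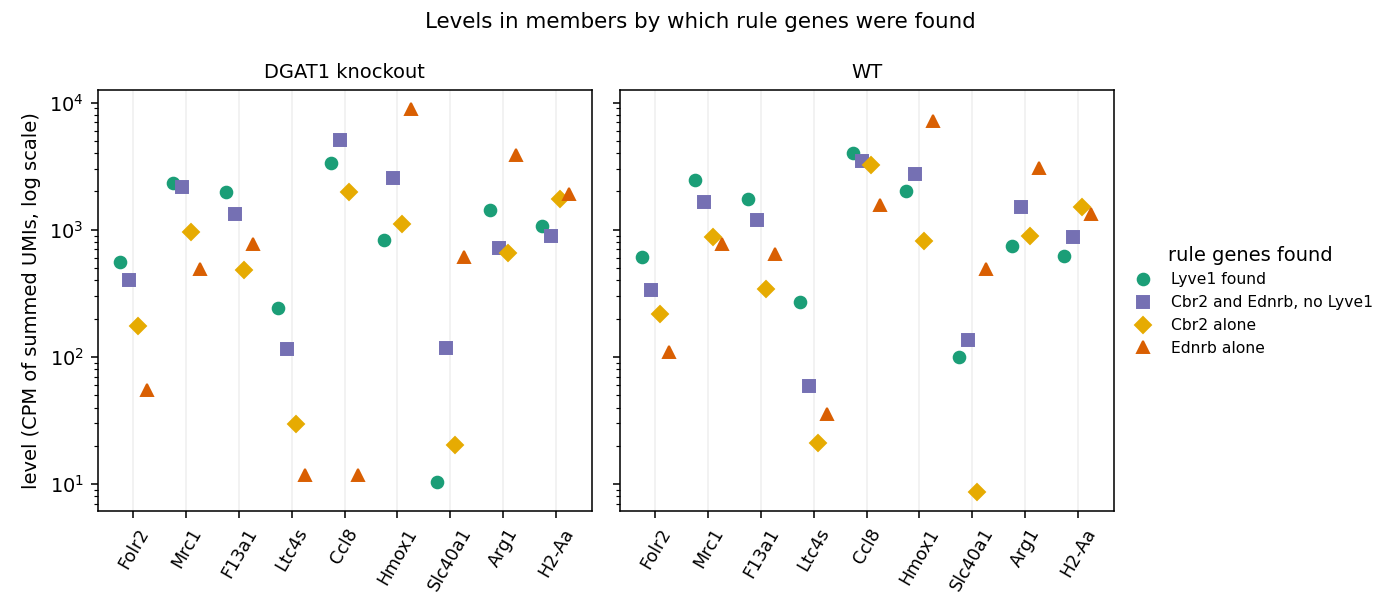
Level of 9 genes (x axis; y axis, CPM on a log scale) in members by which rule genes were found, DGAT1 knockout library on the left and WT on the right; each point is 1 class sum, over 21, 29, 32 and 11 knockout cells and 46, 60, 104 and 13 WT cells. Cells with Ednrb alone stand highest in Hmox1, at 8869 and 7172 CPM, and lowest in Folr2, at 55.0 and 110 CPM.

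The study asks how the immune cells of the tumour differ when its melanoma cells lack DGAT1, and members of the 2 libraries were compared for this. Dgat1 (chromosome 15, 76502015 to 76511953, minus strand) had 12.9 CPM in knockout members (8.32 to 18.98) and 14.5 CPM in WT members (11.6 to 17.9). Members are host cells, so this level does not check the labels. Of 9141 genes with enough UMIs, 5.83% were 1.5-fold or more higher in knockout members and 4.84% lower. In other C1q macrophages, 7.05% of 12563 genes were higher and 5.36% lower in the knockout library. These comparisons share no cells but come from the same libraries, and the tumours, capture and sequencing behind a library cannot be told apart from its genotype. Members also differed in depth, as given above, and 42 of 93 knockout and 85 of 223 WT members had 10 or more rule UMIs. The part of either in the differences below was not tested, beyond values in members with 10 or more rule UMIs where these are given.

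Of 20 resident macrophage genes outside the rule, 3 were higher in knockout members and 0 lower, with a median log2 ratio of 0.17, against 0.04 over all genes. Folr2 gave a ratio of 0.974 (0.889 to 1.07) in members, whereas in other C1q macrophages its level was 23.2 CPM in knockout tumours and 71.4 CPM in WT tumours. The resident list had a median of -0.37 in other C1q macrophages, with 2 of its genes higher and 7 lower. The 3 genes higher in knockout members were Cd163, Marco and Cd209f. Cd163 had 179 CPM in knockout members (161 to 199) and 43.7 CPM in WT members (38.6 to 49.4), a ratio of 4.10 (3.48 to 4.84). It was found in 30 of 93 knockout and 55 of 223 WT members, and 10 cells held 79.9% and 73.1% of its UMIs. Without the highest cell of each library it had 161 and 38.3 CPM, and in members with 10 or more rule UMIs 321 and 81.1 CPM. Marco and Cd209f rested on 6 and 4 knockout cells.

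The 10 genes ranked highest in knockout members were Fkbp5, Igf1r, Rasgrp4, Herpud1, Atrnl1, Tmcc1, Ankrd44, Grk5, Ms4a4a and Txndc11. Fkbp5, a chaperone that glucocorticoids induce, had 66.3 CPM in knockout members (55.4 to 78.8) and 18.3 CPM in WT members (15.1 to 22.1), a ratio of 3.62 (2.78 to 4.71). It was also higher in other C1q macrophages of the knockout library, at 41.1 CPM, against 21.3 CPM in WT. Igf1r, the receptor for IGF1, had 65.8 and 26.6 CPM in members, and 40.7 and 19.7 CPM in other C1q macrophages. All 10 were higher in both classes. Herpud1, a protein of the endoplasmic reticulum that is induced when folding fails, differed more in members, at 50.9 and 22.2 CPM, than in other C1q macrophages, at 41.7 and 34.7 CPM, and this contrast was not tested.

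The 10 genes ranked lowest were Ch25h, Slamf9, Cadm1, Pparg, Ppp1r15a, Iigp1, Cxcl9, Ptprm, Cd81 and Ckb. Ch25h, which makes 25-hydroxycholesterol, had 13.4 CPM in knockout members (8.73 to 19.6) and 50.5 CPM in WT members (44.9 to 56.5), and was found in 11 of 93 and 69 of 223 cells. In other C1q macrophages it had 52.5 CPM in knockout tumours and 37.4 CPM in WT tumours. Pparg, a fatty acid sensor, had 37.5 and 88.3 CPM in members and 65.9 and 171 CPM in other C1q macrophages, lower in the knockout library in both. Ch25h, Iigp1 and Cxcl9 ran opposite ways in the 2 classes, and the other 7 were lower in the knockout library in both. Thinning to 3000 UMIs before gating turned the sign of Pparg and Cd81. In members with 10 or more rule UMIs, Slamf9 gave a log2 ratio of -0.46 (-1.11 to 0.15), against -1.70 in all members, and Cd81 -0.29 (-0.63 to 0.03), against -0.91, both under 1.5-fold.

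**Figure D5:**
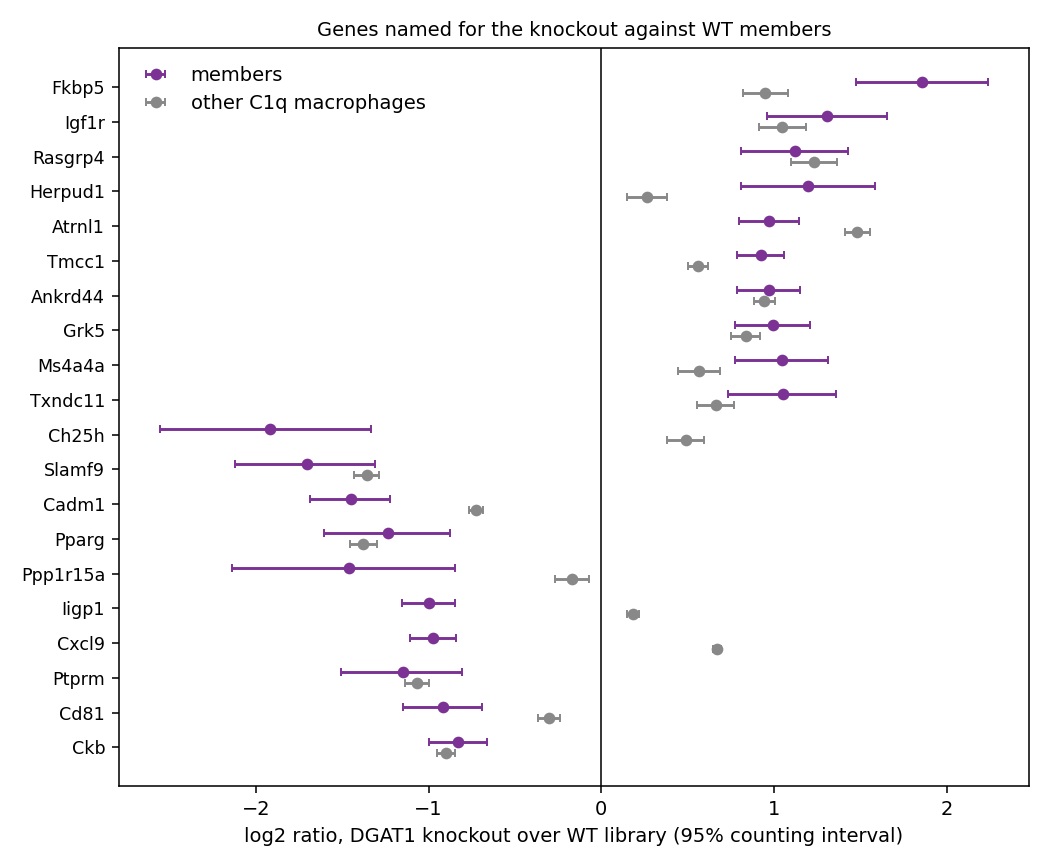
Log2 ratio of the DGAT1 knockout over the WT library (x axis) for the 20 genes ranked highest or lowest in knockout members (rows), in members (purple) and other C1q macrophages (grey); bars are 95% counting intervals. Fkbp5 lies at 1.85 in members and 0.95 in other C1q macrophages, and Ch25h at -1.92 and 0.49.

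Of 15 interferon-stimulated genes, 0 were higher and 6 lower in knockout members, Ifit2, Rsad2, Gbp2, Gbp5, Socs1 and Iigp1, against 4.84% of all genes, with a median log2 ratio of -0.49. In other C1q macrophages the median was -0.04, with 0 higher and 2 lower. Iigp1, a GTPase induced by interferon gamma, had 211 and 421 CPM in knockout and WT members, and 448 and 394 CPM in other C1q macrophages. Cxcl9, a CXCR3 ligand that attracts T cells, had 283 and 556 CPM in members, and 1140 and 716 CPM in other C1q macrophages. In knockout members 1 cell held 291 of the 551 Cxcl9 UMIs, and without the highest cell of each library the levels were 137 and 519 CPM. Cxcl10 had 90.5 and 318 CPM in members, but 89.4 and 41.4 CPM in members with 10 or more rule UMIs, where its direction turned. Gbp2 and Gbp5, guanylate-binding proteins, had 150 and 139 CPM and 62.7 and 43.0 CPM in those cells, so they were not lower there. Socs1, which restrains cytokine signalling, had 27.7 and 29.9 CPM there, and Iigp1 226 and 309 CPM, so both were under 1.5-fold. Cxcl9 stayed lower, at 60.6 and 216 CPM. Of 14 chemokines, 5 were lower in knockout members (Ccl3, Ccl4, Cxcl2, Cxcl9 and Cxcl10) and 0 higher.

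Of 14 monocyte genes measured, 8 were higher in knockout members, against 5.83% of all genes, and 0 lower, with a median log2 ratio of 0.81, and in other C1q macrophages 8 were higher as well, with a median of 0.67. Vcan, versican, had 81.2 CPM in knockout members and 21.2 CPM in WT members, Ly6c2 210 and 98.4 CPM, and Fn1, fibronectin, 354 and 194 CPM. In members with 10 or more rule UMIs these were 75.0 and 15.2 CPM, 234 and 73.7 CPM, and 305 and 174 CPM. Inflammatory macrophage genes gave 5 of 14 higher (Ptgs2, Cd80, Inhba, Slc7a2 and Clec4e) and 0 lower in members, and 7 higher in other C1q macrophages. Of 7 MHC class II genes, Ciita alone was 1.5-fold higher in knockout members, at 94.6 and 39.2 CPM, with a list median of 0.26, against 0.59 and 4 genes higher in other C1q macrophages.

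Lipid genes gave 5 of 18 lipid-associated macrophage genes higher in knockout members (Spp1, Fabp5, Fabp4, Cd9 and Atp6v0d2), against 5.83% of all genes. The 1 lower gene was Lpl, lipoprotein lipase, at 265 and 443 CPM. In knockout members, the 10 highest cells of each gene held 97.2% of Fabp4, 87.5% of Atp6v0d2 and 78.0% of Cd9 UMIs. For Spp1 and Fabp5 they held 77.6% and 61.65%. Fabp4 and Atp6v0d2 were found in 14 and 15 knockout members. Spp1, osteopontin, had 920 and 405 CPM in members, 152 and 333 CPM in members with Lyve1, and 2845 and 1321 CPM in cells with Ednrb alone. Iron genes gave 2 of 14 higher, Slc40a1 and Trf, and 0 lower. Slc40a1 rested on the cells with Ednrb alone, since without them its log2 ratio was -0.32 (-0.68 to 0.02). Of 12 genes of glutathione and ferroptosis defence, 0 differed by 1.5-fold either way. Of 14 triglyceride and sterol genes, 2 were higher, Fasn among them, and Lipg was lower. Cycle genes gave 6 of 9 lower in knockout members, against 4.84% of all genes, and 3 lower in other C1q macrophages. Cells with many cycling UMIs had been left out of both classes. RNA from outside the cells (free RNA) could account for up to 100% and 88.6% of Ube2c UMIs in knockout and WT members. For Tyms this was 83.75% and 45.0%, and for Stmn1 32.1% and 21.3%. Ube2c had 17 knockout UMIs and a ratio interval of 0.333 to 1.012, which includes no difference. Melanoma genes gave 5 of 6 lower in members and 5 lower in other C1q macrophages, and free RNA, which carries these genes, could account for up to 9.26% of UMIs in knockout members and 7.95% in WT members. With free RNA subtracted, 99 of 99 results past 1.5-fold kept their sign. The ranked genes among them had been kept only where free RNA could give under 25% of UMIs in the higher class. Their signs could hardly turn, so the count says little on free RNA. These results held no melanoma gene and neither the melanoma nor the cycle list, so they do not bear on those differences.

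Of 17 transcription factors, Spic, a factor of iron-recycling macrophages, was higher in knockout members and Nr1h3 and Pparg, sensors of sterols and fatty acids, were lower. Spic rested on 7 knockout cells, and without the highest cell of each library it had 8.39 CPM in knockout members and 5.41 CPM in WT members. Of 15 growth and vessel factors, Pdgfa, Fgfr1 and Mmp12 were higher and Pdgfb was lower. Pdgfa rested on 27 UMIs in 11 knockout members, with a ratio of 1.56 (0.942 to 2.52), an interval that includes no difference. Mmp12, a matrix protease, turned on 1 knockout cell with 445 UMIs, since without the highest cell of each library it had 34.5 CPM in knockout members and 61.7 CPM in WT members. Of 14 suppressive macrophage genes, Chil3 was higher and Il10 and Retnla were lower. Of 16 immediate early and heat shock genes, Hsph1 was higher and Fosb, Jund, Ier2 and Hspa1a were lower. Fosb rested on 13 UMIs in 7 knockout members, and the interval of its ratio included no difference. Abcg1, a sterol exporter, was the 1 of 16 efferocytosis genes past 1.5-fold, at 66.3 and 115 CPM. Of 14 complement and Fc receptor genes, Itgax was higher, on 36 UMIs in 10 knockout members, and Fcgr4 lower. Of 20 hypoxia and glycolysis genes and 19 lysosome genes, 0 differed by 1.5-fold either way.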

How the data were processed

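Single-cell RNA was measured in 2 droplet libraries of sorted CD45+ cells, 1 per group. The deposited values are counts, raw UMI numbers for each gene in every barcode with no normalization by the authors. Per the file headers they were written by Cell Ranger 7.2.0, and the build was mm10 per the submitters' processing notes. The sources used here name no annotation. Gene positions came from GENCODE M21 on mm10, which matched 32158 of 32285 gene IDs.

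Barcodes were filtered and gated by the rule in the text (numpy 2.4.6, scipy 1.17.1, scanpy 1.11.5). UMIs were summed per class and library into CPM. Levels carry exact Poisson intervals, shares Clopper-Pearson intervals and ratios exact conditional intervals. The ratio intervals alone were run on simulated counts. Those counts lacked the clumping of UMIs in few cells, so the run does not bear on that. A gene was read from 50 UMIs over the classes or libraries compared, and a difference was counted from 1.5-fold. For the named genes, the rank came from the interval bound closest to 0, taking the first 15 each way for members against other C1q macrophages and the first 10 each way for knockout against WT. Left out were mitochondrial, ribosomal, haemoglobin, receptor segment, Gm, Rik, Xist, Y-linked and melanoma genes, genes found in fewer than 10 cells of the higher class or with over 50% of its UMIs in 10 cells, and genes with 25% or more of their UMIs accountable to free RNA, as seen in barcodes with 100 UMIs or fewer and scaled by melanoma genes, which gives an upper limit. Genes of the lists that this would remove, Cd163 among them, are given with their lists.

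Members and gene lists were chosen with earlier results of these data known. The alternatives changed the gate, depth, doublets, free RNA and filters. Some genes of the lists count in their lists but are not reported here by name.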

Additional observations from a re-analysis of the deposited data

Results flagged for a closer look

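For 6 listed genes, the knockout and WT libraries differed by 1.5-fold or more one way in members and the opposite way in other C1q macrophages; the difference was not tested. Knockout over WT, the log2 ratio in members was 2.54 for Marco, 2.04 for Cd163, 1.45 for Spic, -0.972 for Cxcl9, -0.796 for Fosb and -1.41 for Retnla. In other C1q macrophages the same ratios were -1.07, -0.65, -0.59, 0.67, 1.13 and 3.31. That of Cd163 rests on 17 and 42 UMIs, with a ratio of 0.639 (0.341 to 1.15), an interval that includes no difference. In members, Fosb rests on 13 knockout and 69 WT UMIs, with a ratio of 0.576 (0.292 to 1.05), which includes no difference as well. Marco, Spic and Retnla were found in 6, 7 and 3 knockout members, and without the highest cell of each library Marco had 8.32 and 2.21 CPM and Spic 8.39 and 5.41 CPM in knockout and WT members.

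Cycling cells with the same marks lay outside the members. Among C1q cells with 3 or more rule UMIs, 8 of 101 in the knockout library, 7.92% (3.48% to 15.01%), and 77 of 300 in the WT library, 25.7% (20.8% to 31.0%), had more than 4 UMIs of Mki67 and Top2a. Among C1q cells with fewer rule UMIs these shares were 10.9% and 19.5%. After thinning to 3000 UMIs, 9.90% and 25.2% of the cells with the rule genes had a UMI of Mki67 or Top2a, against 17.6% and 25.9% of the others. Some marks of the cycling cells were near the members' level, with Folr2 at 260 and 285 CPM and Gas6 at 249 and 261 CPM in the knockout and WT libraries, against 15.5 and 49.5 CPM and 19.7 and 22.2 CPM in other cycling C1q cells. Other marks were further off: Cd163 had 7.42 and 50.01 CPM in cycling cells, against 179 and 43.7 CPM in members, Ednrb 119 and 52.4 CPM against 283 and 193 CPM, Mrc1 828 and 1336 CPM against 1584 and 1411 CPM, Selenop 716 and 832 CPM against 1250 and 1076 CPM, and Marco 0 and 73.0 CPM against 21.6 and 3.70 CPM. The median depth of the cycling cells with the marks was 37119 and 40077 UMIs.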

How the results depend on the processing

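Of 149 comparisons of summary values with an alternative, 107 stayed inside the interval of the main setting and 42 moved further, with no called direction turned. For list medians this interval is the median of the single genes' bounds, not an interval of the median itself. Medians under 1.5-fold, such as those of knockout over WT members, were not called and could not count as turned. The share of members in the knockout and WT libraries was 2.21% and 2.40% after thinning to 3000 UMIs, 3.50% and 5.0% with 6 or more rule UMIs, 2.41% and 3.30% with 10 or more, 4.13% and 7.33% without Ednrb in the rule, 2.81% and 4.11% with 2 or more rule genes found, and 7.32% and 10.3% with C1q at 30 or more per 10000; the WT share was 5.82% with 3 or more rule UMIs per 10000, and only thinning moved the log2 ratio of shares further, to -0.113. Members against other C1q macrophages, the median of resident genes in the knockout library was 2.87 with 2 or more rule genes and 2.90 with 10 or more rule UMIs, and in the WT library 2.48 thinned, 2.38 per 10000, 2.38 with 6 or more UMIs, 2.52 with 2 or more genes, 2.11 with 20 UMIs as the minimum and 2.60 with 10 or more. For MHC class II it was -2.08 and -1.29 thinned, -1.58 and -1.17 per 10000, -1.48 and -0.952 with 6 or more, -1.57 and -1.29 with 2 or more genes, -1.74 and -1.19 with 10 or more, and -1.15 in the knockout library with C1q at 30, where inflammatory genes gave -1.38. Knockout over WT members, MHC class II gave 0.133 thinned, 0.325 per 10000, 0.168 with 6 or more, 0.112 without Ednrb in the rule, 0.134 with C1q at 30, 0.343 with 20 UMIs and 0.156 without cells with Ednrb alone, and inflammatory genes -0.136 with 2 or more rule genes, against 0.213. Of single genes, Pparg turned to 0.574 and Cd81 to 0.203 when thinned, Cxcl10 to 1.11 with 10 or more rule UMIs, Spp1 to -0.019 and Slc40a1 to -0.807 with 2 or more rule genes, and Slc40a1 to -0.323 without cells with Ednrb alone; the cause was not tested.

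The settings of 10 or more rule UMIs and of leaving out cells with Ednrb alone were chosen after seeing the data. Thinning left no inflammatory genes to compare between knockout and WT members. No paired analysis was possible because each group has 1 library, and leaving out a replicate was not possible for the same reason. Fewer than 100 knockout members limit what can be seen: of genes below the minimum of 50 UMIs nothing is said. Pooled tumours, capture and sequencing of a library cannot be told apart from its group.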
